A study of Mus musculus with 12 samples.

Results

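The heat shock proteins and their DNAJ co-chaperones are the subject of this report. Members were taken from gene symbols alone, as every gene of the Hspa, Hspb, Hspd1, Hspe1, Hsph1, Hsp90, Dnaja, Dnajb and Dnajc families, which gave 69 of the 17955 genes in the deposited table. Of these, 60 were among the 12903 genes with enough reads to be tested. The RNA came from spleen and lymph node Tregs, the regulatory T cells that restrain immune responses, taken by sorting for CD4, CD25 and YFP. The mice were C57BL/6, aged 7 weeks, in 4 groups of 3 libraries. The cKO DMαKG group had floxed Tkt deleted in Tregs and drank water with DMαKG, an ester of the Krebs cycle metabolite α-ketoglutarate that can enter cells. The WT DMαKG group had intact Tkt and the same water. The cKO vehicle group had the deletion and drank vehicle, and the WT vehicle group had intact Tkt and drank vehicle. Both genotypes carried the Foxp3 YFP-Cre allele that drives the deletion in Foxp3-expressing cells, so the WT mice also expressed Cre, and no group analysed here lacked it. Treatment ran from the dam's pregnancy until the offspring were adult, so DMαKG was given to the whole animal and not to Tregs alone. The p-values rest on 3 libraries per group and measure the spread between them.

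Heat shock proteins are molecular chaperones, which bind unfolded proteins, keep them from clumping and help them fold. The Hsp70 proteins (Hspa genes) do this in cycles of ATP hydrolysis that are started by DNAJ proteins, which share a J domain, and Hsp110 proteins such as Hsph1 reset the cycle by exchanging the nucleotide. Hsp90 proteins act later on kinases, receptors and other clients, Hspd1 and Hspe1 form the folding chamber of mitochondria, and small heat shock proteins hold unfolded protein without ATP. Some of these genes are expressed in every cell, while others, such as Hspa1a and Hspa1b, are switched on within minutes of stress by heat shock factor 1.

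Tkt, the deleted gene, stood at 37.8, 34.6 and 31.5 CPM in the cKO DMαKG libraries and at 110, 136.5 and 194 CPM in the WT DMαKG libraries. It stood at 26.2, 37.2 and 41.8 CPM in the cKO vehicle libraries and at 133, 102 and 111 CPM in the WT vehicle libraries. CPM are counts scaled to library size, after trimmed-mean (TMM) normalization, and are not corrected for gene length. Summed counts ran from 1.57e+07 to 1.89e+07 per library. None of the 8 Treg markers, Foxp3 and Cd4 among them, was at 0 in every library, and their summed level was 6180 to 7013 CPM in cKO DMαKG, 4888 to 6008 CPM in WT DMαKG, 4286 to 5167 CPM in cKO vehicle and 4629 to 4729 CPM in WT vehicle. Much of the gap between the cKO groups was Ctla4, with a mean of 2425 CPM with DMαKG and 701.5 CPM with vehicle. Between these groups 4 of the 8 markers were higher with DMαKG and 4 lower. On the first principal component of all genes, which held 29.0% of the variance, WT DMαKG replicate 3, cKO vehicle replicate 4 and WT vehicle replicate 4 had the lowest scores (-29.7, -32.8 and -32.9), although they belong to different groups. These are called the 3 low-scoring libraries here. The libraries also differed in sex markers: mean log2 CPM of Y-linked genes was -0.37, 6.36 and -0.09 in cKO DMαKG, 6.27, 3.62 and 7.08 in WT DMαKG, 6.55, 6.82 and 6.94 in cKO vehicle, and 5.82, -1.57 and 7.18 in WT vehicle. Values below 0 thus occurred in 2 cKO DMαKG libraries and in WT vehicle replicate 3, but in no cKO vehicle or WT DMαKG library. These markers therefore ran partly with treatment within cKO and partly with genotype under DMαKG. Through WT vehicle replicate 3 they were also uneven in cKO against WT with vehicle and in DMαKG against vehicle within WT. The interaction and the averaged tests use the same libraries.

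In these Tregs chaperones of the cytosol and the endoplasmic reticulum were the most abundant members. Hspa8, the constitutive cytosolic Hsp70, ranked first with a mean of 2670 TPM (a level corrected for gene length) and a range of 2152 to 3200 TPM over the 12 libraries. Hsp90ab1, the constitutive cytosolic Hsp90, followed with 1917 TPM. Hspa5, the endoplasmic reticulum Hsp70 known as BiP or GRP78, had 934 TPM, Hsp90aa1, the inducible cytosolic Hsp90, 468 TPM, and Hsp90b1, the endoplasmic reticulum Hsp90 known as GRP94, 340 TPM. These 5 genes held 60.8 to 66.6% of the members' summed TPM, and all members together held 0.907 to 1.17% of the TPM of a library. Hspa8 and Hsp90ab1 overlapped in level between libraries, since Hsp90ab1 ran from 1141 to 2601 TPM.

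The mitochondrial chaperonin was also abundant. Hspe1, its lid, had 283 TPM, and Hspd1, its barrel, 223 TPM. Hspa9, the mitochondrial Hsp70, had 161 TPM. The DNAJ proteins with the highest levels were Dnajc7, which binds both Hsp70 and Hsp90, at 245 TPM, Dnajc8, a nuclear protein linked to splicing, at 238 TPM, and Dnaja1, a general Hsp70 partner, at 219 TPM. Hspd1 and Hspe1 overlap head to head on chromosome 1, and Dnajc7 overlaps Cnp and Nkiras2. No source read here says whether strand was used in counting, so these levels are uncertain. In all, 14 members overlap another gene of the table, 12 of them tested.

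At the low end, 9 members were not tested. Hspb8 had no read in any library, and Hspb3, Dnajb8 and Dnajc22 never had more than 1. Hspb7 had at most 5 reads in a library, Dnajb7 at most 7, Hspb9 and Dnajb3 at most 10, and Hspa12b at most 11. The small heat shock proteins were therefore mostly at or near 0: 3 of 7 were tested, and Hspb1, the best known of them, ran from 0.105 to 1.62 CPM. Hspb11 stood at 14.9 to 24.0 CPM, but its product is better known as IFT25, a subunit of the transport machinery of cilia.

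**Figure D1:**
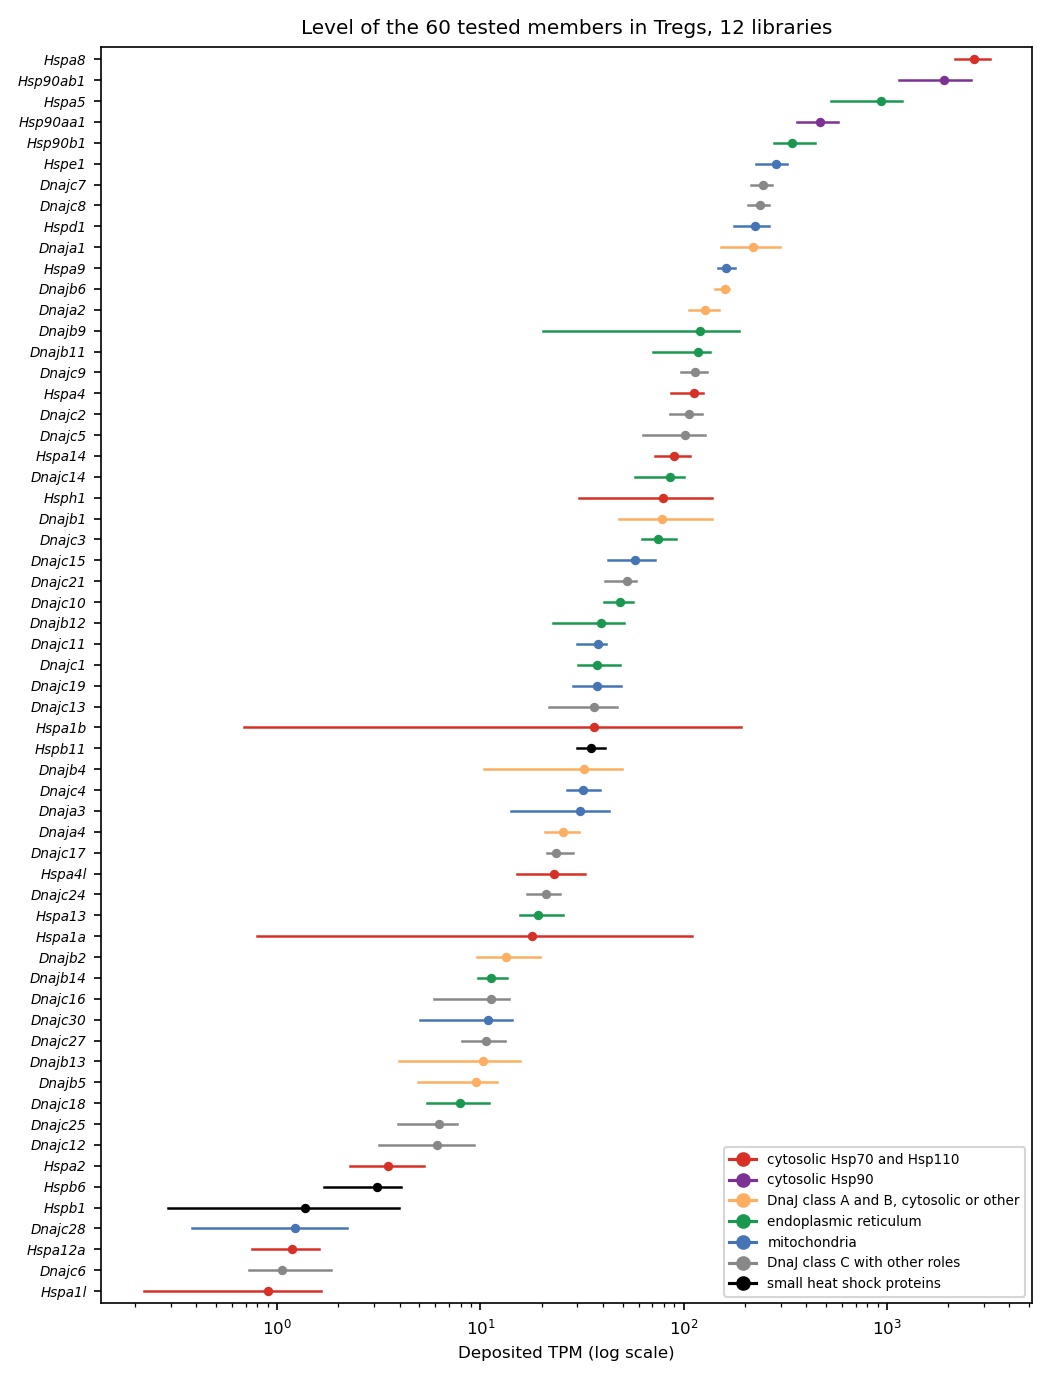
Deposited TPM (log scale) of the 60 tested members, ordered from the highest mean, with the mean over 12 libraries as a point, the lowest and highest library as a line, and the cellular role as colour. Hspa8 is highest at a mean of 2670 TPM, and the lines of Hspa1a, Hspa1b, Dnajb9 and Dnajb4 are long compared with those of their neighbours.

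The largest differences among libraries were in the stress-inducible Hsp70 genes, with high and low libraries in each group. Hspa1a stood at 21.2, 1.56 and 1.78 CPM in cKO DMαKG replicates 1, 2 and 3, and at 2.52, 3.57 and 31.0 CPM in WT DMαKG replicates 1, 2 and 3. It stood at 2.22, 139 and 1.03 CPM in cKO vehicle replicates 2, 3 and 4, and at 35.1, 25.8 and 2.05 CPM in WT vehicle replicates 2, 3 and 4. Every group thus held at least 1 library at 21.2 CPM or more and at least 1 at 3.57 CPM or less. Hspa1b stood at 44.6, 0.866 and 1.145 CPM in cKO DMαKG, at 9.55, 4.31 and 81.1 CPM in WT DMαKG, at 15.8, 243 and 4.54 CPM in cKO vehicle, and at 51.4, 71.45 and 8.39 CPM in WT vehicle, in the same order of replicates. The same 5 libraries were highest for both genes, and cKO vehicle replicate 3 was first for both.

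Hspa1a and Hspa1b encode nearly the same protein and lie next to each other, with Hspa1l, on chromosome 17. Of the 50-base windows of the Hspa1a transcript 58.8% also occur in the Hspa1b transcript, so how the counting divided reads between them is uncertain. Their sum ran from 2.42 CPM in cKO DMαKG replicate 2 to 382 CPM in cKO vehicle replicate 3. Their upstream sequences are shown because both genes are textbook targets of heat shock factor 1. The 250 bases before each start site (RefSeq, GRCm38.p6, minus strand, chr17:34972157-34972406 for Hspa1a and chr17:34959239-34959488 for Hspa1b) differ at 3 bases. In both, a pair of inverted heat shock element units, GAANNTTC, lies 104 to 97 bases before the start and is in capitals.
Hspa1a: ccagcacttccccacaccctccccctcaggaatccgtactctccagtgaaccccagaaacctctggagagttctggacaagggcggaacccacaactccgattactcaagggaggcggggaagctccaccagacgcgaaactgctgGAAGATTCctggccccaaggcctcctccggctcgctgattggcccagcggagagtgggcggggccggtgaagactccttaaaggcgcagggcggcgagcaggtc
Hspa1b: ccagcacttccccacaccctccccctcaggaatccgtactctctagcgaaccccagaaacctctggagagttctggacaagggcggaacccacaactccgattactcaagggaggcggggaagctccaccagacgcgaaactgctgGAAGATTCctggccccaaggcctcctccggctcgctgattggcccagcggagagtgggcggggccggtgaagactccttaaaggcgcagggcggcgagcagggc
The motif was searched as GAANNTTC and TTCNNGAA, which covers both strands. It was found in 10 of 57 members with a window (17.5%), Hsph1, Dnaja1 and Hspe1 among them, and in 13% of the 27025 windows of all genes. The longer form of 3 units, GAANNTTCNNGAA or TTCNNGAANNTTC, which contains the pair, was found in Dnajb6 and Hspe1 and in 0.403% of all windows.

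Hsph1 and Dnajb1, which are also inducible by heat, had a narrower spread and shared most of their highest libraries with Hspa1a and Hspa1b. Hsph1, the Hsp110 of the cytosol, stood at 113, 80.7 and 58.0 CPM in cKO DMαKG, at 91.2, 73.9 and 148 CPM in WT DMαKG, at 112, 213 and 92.4 CPM in cKO vehicle, and at 210.3, 171 and 112 CPM in WT vehicle. Its 5 highest libraries were the 5 highest for Hspa1a and Hspa1b, though the fifth barely led the sixth (113.4 against 112.4 CPM). Dnajb1, the main Hsp70 partner in the heat shock response, stood at 86.7, 70.6 and 78.8 CPM in cKO DMαKG, at 93.6, 75.2 and 109.8 CPM in WT DMαKG, at 97.2, 188 and 94.8 CPM in cKO vehicle, and at 141.5, 125 and 94.8 CPM in WT vehicle. Its 4 highest libraries were among those 5, with cKO vehicle replicate 3 again first, but cKO DMαKG replicate 1 ranked 9 of 12. The inducible Hsp90aa1 followed another order. It was highest in cKO DMαKG replicate 3, at 812 CPM, where Hspa1a was at 1.78 CPM. It stood at 739 CPM in cKO vehicle replicate 3 but at 469.5 CPM in WT DMαKG replicate 3.

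**Figure D2:**
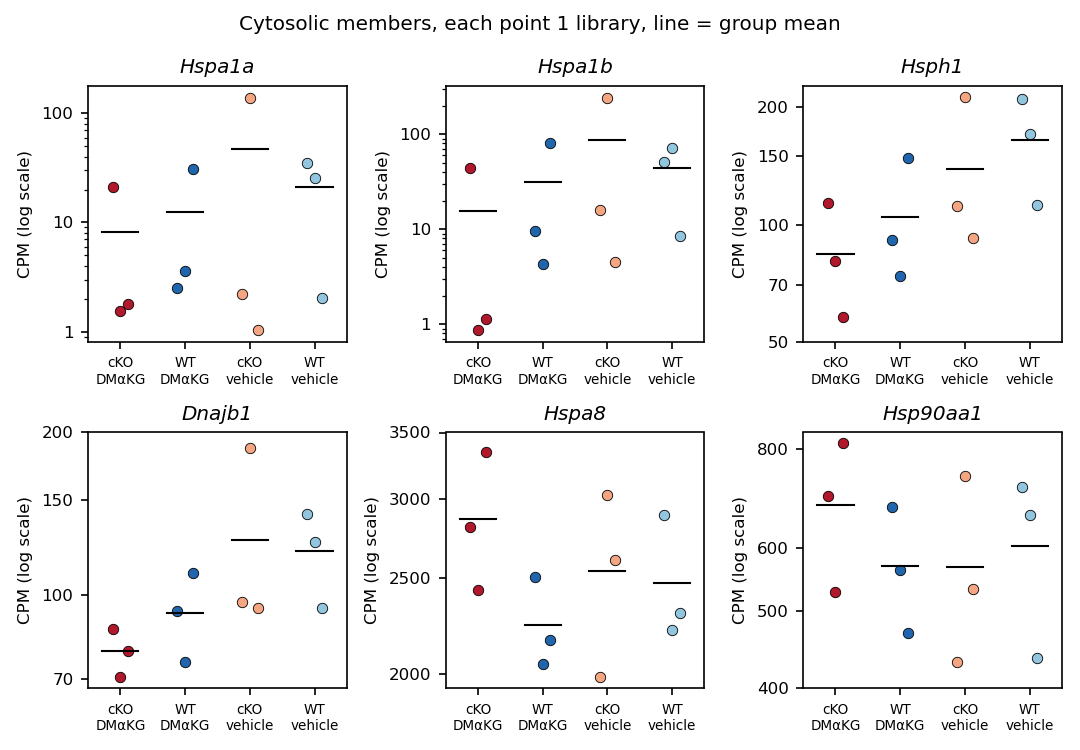
CPM (log scale) of 6 cytosolic members in the 4 groups, with each library as a point and the group mean as a line. Hspa1a and Hspa1b differ up to 135-fold and 281-fold between libraries with high and low libraries in each group, while Hspa8 stays between 1988 and 3348 CPM.

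None of these 4 genes passed the main test in any comparison. Limma voom with quality weights called Hsph1 and Dnajb1 for DMαKG averaged over genotypes, where it called 12% of all genes. It also called both across the 4 groups, where it called 14.7% of all genes. The main test was edgeR's quasi-likelihood test, fitted to all genes, with Benjamini-Hochberg adjustment over the 12903 tested and a threshold of 0.05. In cKO against WT with vehicle the log2 fold change was 1.18 for Hspa1a, with a 95% interval of -2.96 to 5.32, and 1.004 for Hspa1b, with an interval of -3.08 to 5.08 (edgeR adjusted p = 0.967 and 0.973). In DMαKG against vehicle within cKO it was -2.54 for Hspa1a and -2.50 for Hspa1b (edgeR adjusted p = 0.506 and 0.504). Single libraries set these values. Without cKO vehicle replicate 3 the value for cKO against WT with vehicle was -3.70 for Hspa1a and -2.11 for Hspa1b, and that for DMαKG within cKO was 2.34 for Hspa1a and 0.61 for Hspa1b, all with the sign turned. Without cKO DMαKG replicate 1 the value within cKO was -4.81 for Hspa1a and -6.43 for Hspa1b. The data therefore bound any difference in Hspa1a and Hspa1b between groups only loosely.

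The 5 libraries high in Hspa1a did not share a level of immediate-early genes, which rise within minutes of handling or stimulation. The 24 immediate-early genes summed to 16640 CPM in cKO DMαKG replicate 1, 5749 CPM in WT DMαKG replicate 3, 17640 CPM in cKO vehicle replicate 3, and 11460 and 9311 CPM in WT vehicle replicates 2 and 3. In the 7 other libraries they summed to 3227 to 15410 CPM, which spans most of that range. Their part in the levels of Hspa1a and Hspa1b was not tested.

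Dnajb9 and Hspa5, 2 of the 12 endoplasmic reticulum members, followed a different set of libraries. Dnajb9 encodes ERdj4, a co-chaperone of Hspa5 that is induced when the endoplasmic reticulum is loaded. It stood at 130, 146 and 171 CPM in cKO DMαKG, at 163, 139.6 and 34.0 CPM in WT DMαKG, at 76.8, 93.9 and 17.3 CPM in cKO vehicle, and at 106, 127 and 19.1 CPM in WT vehicle. The 3 low libraries, 1 each in WT DMαKG, cKO vehicle and WT vehicle, were the 3 low-scoring libraries. Hspa5 stood at 1270, 1139 and 1638 CPM in cKO DMαKG, at 1184, 1191 and 695 CPM in WT DMαKG, at 997, 1293 and 643 CPM in cKO vehicle, and at 1186, 1173 and 564 CPM in WT vehicle, with the same 3 libraries lowest. Hspa5 overlaps Rabepk, so part of its count is uncertain.

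The levels of Hsp90b1, Dnajb11 and Dnajc3 in these 3 libraries overlapped those in the other 9. Hsp90b1 stood at 391, 354 and 396.5 CPM there, against 357 to 507 CPM elsewhere. Dnajb11, a soluble Hspa5 partner, stood at 95.7, 108 and 98.3 CPM in them, against 72.8 to 113 CPM in the others. Dnajc3, an Hspa5 partner known as P58IPK that is induced with it in stress, stood at 203, 178 and 195 CPM there, against 146 to 193 CPM elsewhere, so that 2 of the 3 were its highest libraries. Dnajb4, a cytosolic DNAJ protein of the Dnajb1 kind, which overlaps Fubp1 and is uncertain, had 18.3, 15.8 and 14.4 CPM there, against 28 to 83.3 CPM elsewhere. The 24 immediate-early genes were low in the same 3 libraries, at 5749, 3251 and 3227 CPM, against 7838 to 17640 CPM elsewhere. Their part in the Hspa5 and Dnajb9 levels was not tested.

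The upstream sequences of Hspa5 and Hsp90b1 are shown because they carry the endoplasmic reticulum stress element, CCAAT and CCACG with 9 bases between, through which ATF6 and XBP1 are known to act. They are the 250 bases before the RefSeq start site in GRCm38.p6, chr2:34771840-34772089 on the plus strand for Hspa5 and chr10:86705445-86705694 on the minus strand for Hsp90b1, with the elements in capitals.
Hspa5: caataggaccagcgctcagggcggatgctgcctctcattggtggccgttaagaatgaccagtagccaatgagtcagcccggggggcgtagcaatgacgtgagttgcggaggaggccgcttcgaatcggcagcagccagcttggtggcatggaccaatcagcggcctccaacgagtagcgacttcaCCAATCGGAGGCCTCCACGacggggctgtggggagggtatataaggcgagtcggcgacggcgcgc
Hsp90b1: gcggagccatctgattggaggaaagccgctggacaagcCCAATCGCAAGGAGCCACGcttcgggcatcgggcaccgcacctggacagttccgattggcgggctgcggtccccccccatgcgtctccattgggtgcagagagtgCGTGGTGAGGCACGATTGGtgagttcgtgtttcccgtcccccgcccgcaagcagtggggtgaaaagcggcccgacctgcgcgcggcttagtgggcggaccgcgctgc
The element lies 65 to 47 bases before the start of Hspa5. Hsp90b1 has 1 copy 212 to 194 bases before its start and another, on the other strand, 107 to 89 bases before it. Searched on both strands as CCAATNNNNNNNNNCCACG and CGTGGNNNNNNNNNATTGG, it was found in 3 of 57 members (5.26%), the third being Dnajc3, and in 0.122% of all windows. The window of Dnajb9 holds no match.

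**Figure D3:**
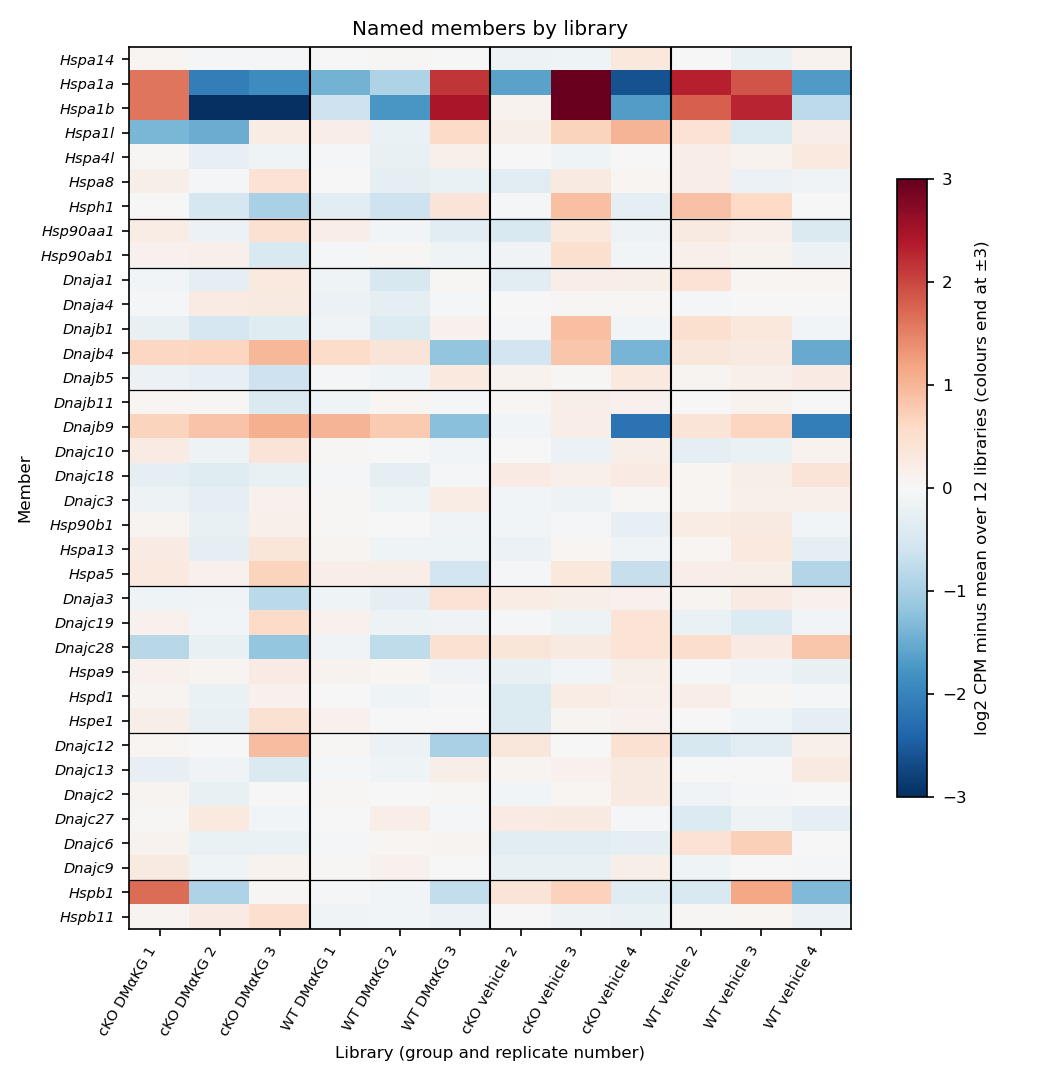
Log2 CPM of the named members minus their mean over the 12 libraries, with libraries in columns by group and members in rows by role (red higher, blue lower, colours ending at ±3). Hspa1a and Hspa1b vary in every group, Dnajb9 and Dnajb4 are low in WT DMαKG 3, cKO vehicle 4 and WT vehicle 4, and most other rows are pale.

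Most members varied little among libraries of a group. The median SD of log2 CPM within groups was 0.20 over the tested members and 0.23 over all tested genes, and 35 of 60 members lay below the median of all genes. At the other end 5 members lay above the 95th percentile of all tested genes: Hspa1a with an SD of 2.59, Hspa1b with 2.53, Dnajb9 with 1.19, Hspb1 with 0.97 and Dnajb4 with 0.91. Hspb1 had few reads, so counting error alone is large there. Among the steadiest was Dnajc14, an endoplasmic reticulum membrane protein that overlaps Ormdl2 and Tmem198b and is uncertain, at 160 to 191 CPM in all 12 libraries.

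**Figure D4:**
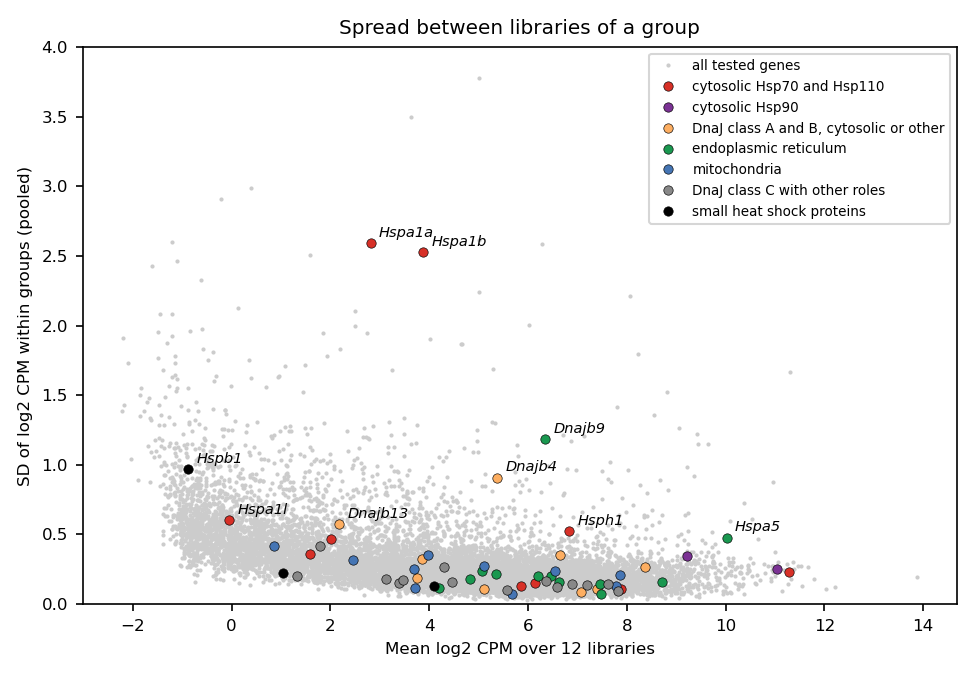
SD of log2 CPM within groups, pooled over the 4 groups (y axis), against mean log2 CPM (x axis), with all tested genes in grey and the 60 tested members in colour by role. Hspa1a and Hspa1b stand at 2.59 and 2.53, Dnajb9 at 1.19 and Dnajb4 at 0.91, above most genes of like level.

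Transketolase, the product of Tkt, moves carbon between sugars in the pentose phosphate pathway, and cKO against WT with vehicle asked what its loss changed. No chaperone passed: edgeR called 0 of 60 members, where 0.062% of all tested genes were called. At an unadjusted p under 0.05 there were 3 members, 5% of those tested, against 7.29% of all genes. The median log2 fold change was 0.04 over the members and 0.0072 over all tested genes, and 39 of 60 members were on the higher side against 51.6% of all genes. DESeq2 called 0 members and limma voom with quality weights called 1, Dnajc27, where it called 1.9% of all genes. Where DESeq2 or voom called 0 members, here and below, no share of all genes was computed to set beside it. Groups did not overlap for 11 members, 18.3% of those tested, against 15.3% of all genes.

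The 3 members under an unadjusted p of 0.05 had unlike roles. Dnajc6, or auxilin, which strips clathrin from vesicles, stood at 1.90, 1.87 and 1.96 CPM in cKO vehicle and at 3.28, 4.05 and 2.41 CPM in WT vehicle. The groups did not overlap, and the log2 fold change was -0.76 (SE 0.24, edgeR adjusted p = 0.402). Dnajc27, a small GTPase fused to a J domain, stood at 26.2, 26.4 and 21.6 CPM in cKO vehicle and at 16.5, 19.8 and 17.9 CPM in WT vehicle, with every cKO library above every WT library (log2 fold change 0.45, SE 0.14, edgeR adjusted p = 0.41). Hspa4l, an Hsp110 protein, averaged 56.1 ± 2.45 CPM in cKO and 67.2 ± 4.48 CPM in WT (SD, n = 3 each), a log2 fold change of -0.26 (edgeR adjusted p = 0.678).

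For the main chaperones the intervals bound the difference with vehicle. Hspa8 averaged 2541 ± 524 CPM in cKO and 2470 ± 365 CPM in WT, with a log2 fold change of 0.04 and a 95% interval of -0.35 to 0.44. Hsp90ab1 averaged 2308 ± 552 CPM in cKO and 2167 ± 263 CPM in WT (log2 fold change 0.09, interval -0.33 to 0.51). Hspa5 averaged 978 ± 325 CPM in cKO and 974 ± 355 CPM in WT (log2 fold change 0.0048, interval -0.69 to 0.70). The interval of Hspa5 was thus wider than those of Hspa8 and Hsp90ab1. Of the mitochondrial members 8 of 10 were on the higher side with a median of 0.08, and of the endoplasmic reticulum members 5 of 12 with a median of -0.09, and edgeR called 0 of either. Hspd1 averaged 236.5 ± 53.8 CPM in cKO and 244 ± 21.4 CPM in WT, and Hsp90b1 386 ± 28.1 CPM in cKO and 465 ± 60.01 CPM in WT (log2 fold change -0.27, edgeR adjusted p = 0.73).

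Beside these values, macrophage and monocyte markers summed to 47.3 to 114 CPM in cKO vehicle and 75.7 to 216 CPM in WT vehicle, with all 10 markers on the lower side, and markers of dendritic cells to 43.3 to 52.6 CPM in cKO and 54.0 to 89.8 CPM in WT. In bulk RNA, fewer cells of a type and less RNA per cell cannot be told apart. The part of these cells in the members' levels was not tested.

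DMαKG against vehicle within WT asked about the treatment alone. Again 0 members passed in edgeR, where 0% of all genes did, and 0 in DESeq2 or voom. At an unadjusted p under 0.05 there were 2 members, 3.33% of those tested, against 2.73% of all genes, and groups did not overlap for 3 members against 8.45% of all genes. The median was -0.04 over the members and -0.0013 over all genes, and 26 of 60 members were on the higher side, against 49.8% of all genes. Dnajc18, a DNAJ protein of the endoplasmic reticulum membrane, had the smallest p, with 17.5, 15.1 and 17.8 CPM in WT DMαKG and 19.1, 20.6 and 23.9 CPM in WT vehicle (log2 fold change -0.34, SE 0.13, edgeR adjusted p = 0.999). Dnajc27 averaged 22.7 ± 2.12 CPM in WT DMαKG and 18.1 ± 1.62 CPM in WT vehicle (0.33, adjusted p = 0.999 in edgeR). Hspa4l averaged 57.0 ± 7.46 CPM in WT DMαKG and 67.2 ± 4.48 CPM in WT vehicle (-0.24). These 2 genes were also among the 3 with the smallest p in the first comparison, which used the same WT vehicle libraries, so the comparisons are not independent.

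In cKO Tregs DMαKG went with the largest number of small unadjusted p-values, in the members as in all genes. There were 11 members under 0.05, 18.3% of those tested, against 17.3% of all genes, and 12 with groups that did not overlap, against 21.1% of all genes. The adjusted test in edgeR called 0 members and 0% of all genes. DESeq2 called 1 member, Dnajc18, where it called 3.01% of all genes, and voom 1, Hspa1l, where it called 3.49%. The median was -0.02 over the members and 0.0037 over all genes, and 27 of 60 members were on the higher side, against 50.4% of all genes.

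Dnajc18 stood at 15.3, 14.2 and 15.6 CPM in cKO DMαKG and at 21.7, 20.3 and 21.8 CPM in cKO vehicle. The groups lay well apart, with a log2 fold change of -0.50 (SE 0.13, 95% interval -0.77 to -0.23, edgeR adjusted p = 0.145, DESeq2 adjusted p = 0.0247). With Y-linked expression as a covariate it was -0.47 (edgeR adjusted p = 0.909). Dnajc13, or RME-8, which works with Hsp70 on endosomes, stood at 99.9, 110 and 87.2 CPM in cKO DMαKG and at 126, 129 and 143 CPM in cKO vehicle (-0.42, SE 0.12, edgeR adjusted p = 0.157). Dnajc28, a little-studied mitochondrial DNAJ protein with few reads, stood at 0.907, 1.44 and 0.70 CPM in cKO DMαKG and at 2.22, 2.09 and 2.32 CPM in cKO vehicle (-1.11, SE 0.36, edgeR adjusted p = 0.192, and -0.66 with the Y-linked covariate). In each of these 3 genes every DMαKG library was below every vehicle library.

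Further members under an unadjusted p of 0.05 in cKO had other roles. Hspb11 averaged 20.8 ± 3.02 CPM in cKO DMαKG and 15.7 ± 1.06 CPM in cKO vehicle (log2 fold change 0.41), and Dnaja3, the mitochondrial partner of Hspa9, 27.6 ± 6.92 CPM in cKO DMαKG and 38.8 ± 1.19 CPM in cKO vehicle (-0.49, and -0.29 without cKO DMαKG replicate 3). Dnajb5, a cytosolic DNAJ protein, averaged 10.7 ± 1.74 CPM in cKO DMαKG and 14.9 ± 1.48 CPM in cKO vehicle (-0.48). Dnajb1 averaged 78.7 ± 8.04 CPM in cKO DMαKG and 126.5 ± 52.9 CPM in cKO vehicle (-0.68, edgeR adjusted p = 0.213), and -0.27 without cKO vehicle replicate 3. Hspa1l, an Hsp70 best known from testis, averaged 0.503 ± 0.446 CPM in cKO DMαKG and 1.42 ± 0.441 CPM in cKO vehicle (-1.50, and -2.50 without cKO DMαKG replicate 3). Among the constitutive chaperones, Hspa8 had a log2 fold change of 0.17 with an interval of -0.22 to 0.57, and Hsp90ab1 -0.16 with an interval of -0.58 to 0.26.

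For endoplasmic reticulum members the size of the difference depended on which libraries were counted. Dnajb9 averaged 149 ± 20.7 CPM in cKO DMαKG and 62.7 ± 40.2 CPM in cKO vehicle, with groups that did not overlap and a log2 fold change of 1.25 (SE 0.80, edgeR adjusted p = 0.43). Hspa5 averaged 1349 ± 258.5 CPM in cKO DMαKG and 978 ± 325 CPM in cKO vehicle (0.46, adjusted p = 0.454 in edgeR). Without the 3 low-scoring libraries, the values were 0.82 for Dnajb9 (edgeR adjusted p = 0.068) and 0.25 for Hspa5. Without cKO vehicle replicate 4 alone they were 0.80 for Dnajb9 and 0.24 for Hspa5, and with the Y-linked covariate 0.75 for Dnajb9 and 0.12 for Hspa5. Of the 8 Treg markers 4 were on the higher side, and Ctla4 stood apart, at 1965, 2307 and 3001 CPM in cKO DMαKG and at 666, 949 and 490 CPM in cKO vehicle (log2 fold change 1.79, edgeR adjusted p = 0.132). Foxp3 stood at 433, 545 and 279.5 CPM in cKO DMαKG and at 412, 412 and 332 CPM in cKO vehicle. Markers of B cells and of plasma cells, the latter rich in endoplasmic reticulum, summed to 23.4, 20.4 and 70.3 CPM in cKO DMαKG. They summed to 12.8 to 24.9 CPM in cKO vehicle, with 8 of 8 on the higher side under DMαKG. Only cKO DMαKG replicate 3 thus lay above the vehicle range. Macrophage and monocyte markers summed to 86.3, 85.2 and 224 CPM in cKO DMαKG and 47.3 to 114 CPM in cKO vehicle, with 10 of 10 on the higher side. Here too only cKO DMαKG replicate 3 lay above the vehicle range. Their part in the members' levels was not tested.

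In DMαKG against vehicle averaged over genotypes, Dnajc18 had the smallest p. It was lower in all 6 DMαKG libraries (14.2 to 17.8 CPM) than in all 6 vehicle libraries (19.1 to 23.9 CPM). It was the only tested member whose groups did not overlap in this comparison, against 0.488% of all genes. Its log2 fold change was -0.42 (SE 0.089, 95% interval -0.61 to -0.23, unadjusted p = 0.000442), but edgeR's adjusted p was 0.144 and the call was not made. With the Y-linked covariate it was -0.41 (edgeR adjusted p = 0.284). Over the members as a whole, edgeR called 0 members and 0.00775% of all genes, and 9 members, 15% of those tested, were under an unadjusted p of 0.05 against 15.9% of all genes. On the higher side were 25 of 60 members, against 50.4% of all genes. The genotypes did not differ detectably in this effect, with an interaction of -0.16 and a 95% interval of -0.55 to 0.23.

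The call of Dnajc18 depended on the tool. DESeq2 gave an adjusted p of 0.00635 and called it as 1 member among 2.57% of all genes, and voom gave 0.0167 among 9 members, where it called 12% of all genes. Without WT DMαKG replicate 3, edgeR called it too, with Dnajc28 and Dnajb13, where it called 4.72% of all genes. Dnajc28 averaged 1.33 ± 0.622 CPM with DMαKG and 2.40 ± 0.408 CPM with vehicle (SD, n = 6 each; log2 fold change -0.87, edgeR adjusted p = 0.163), and Dnajb1 85.8 ± 14.3 CPM with DMαKG and 123.5 ± 36.8 CPM with vehicle (-0.53, edgeR adjusted p = 0.203, and -0.32 without cKO vehicle replicate 3). Hsph1 averaged 94.2 ± 32.2 CPM with DMαKG and 152 ± 53.3 CPM with vehicle (-0.69, edgeR adjusted p = 0.266). Without the 3 low-scoring libraries, Dnajb9 was the single member called in edgeR, at a log2 fold change of 0.60 (adjusted p = 0.0464), where 1.26% of all genes were called.

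**Figure D5:**
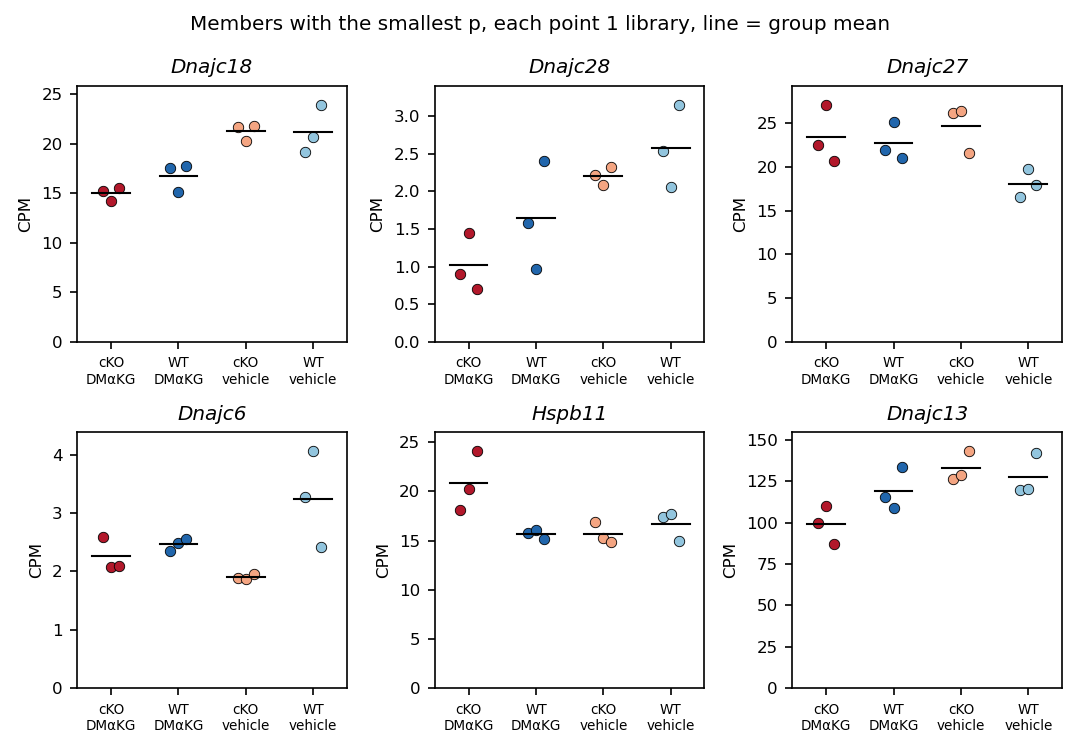
CPM of 6 members, each among those named for the smallest p-values of at least 1 comparison, though not always the first of them. Each library is a point, the group mean is a line and the axis starts at 0. Dnajc18 is at 14.2 to 17.8 CPM in the 6 DMαKG libraries and at 19.1 to 23.9 CPM in the 6 vehicle libraries, and Dnajc27 is lowest in WT vehicle.

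The comparison of cKO with WT under DMαKG asked whether the deletion had an effect once DMαKG was supplied. EdgeR called 0 of 60 members and 0.186% of all genes. DESeq2 and voom called 0 members, with no share of all genes computed for them. There were 5 members under an unadjusted p of 0.05, 8.33% of those tested, against 10.4% of all genes, and 3 whose groups did not overlap, against 15% of all genes. The median was 0.03 over the members and -0.00044 over all genes, and 33 of 60 members were on the higher side, against 50% of all genes. Hspb11 stood at 18.1, 20.3 and 24.0 CPM in cKO DMαKG and at 15.8, 16.0 and 15.2 CPM in WT DMαKG, with no overlap (log2 fold change 0.41, SE 0.14, edgeR adjusted p = 0.316). Dnaja4, a cytosolic partner of Hsp70, averaged 38.6 ± 4.75 CPM in cKO DMαKG and 30.8 ± 2.28 CPM in WT DMαKG (0.33, adjusted p = 0.338 in edgeR). Dnajb5 averaged 10.7 ± 1.74 CPM in cKO DMαKG and 14.0 ± 2.30 CPM in WT DMαKG (-0.39, adjusted p = 0.43 in edgeR). The Y-linked markers ran partly with genotype here. Over all fits, with the Y-linked covariate among them, the log2 fold change ran from 0.27 to 0.52 for Hspb11. It ran from 0.23 to 0.45 for Dnaja4 and from -0.46 to -0.18 for Dnajb5.

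Hspa8 averaged 2864 ± 460 CPM in cKO DMαKG and 2240 ± 235 CPM in WT DMαKG (log2 fold change 0.35, 95% interval -0.04 to 0.75, edgeR adjusted p = 0.528). Hspa9 averaged 246 ± 15.3 CPM in cKO DMαKG and 225 ± 16.6 CPM in WT DMαKG (log2 fold change 0.13, interval -0.13 to 0.39). Hsp90ab1 averaged 2069 ± 445 CPM in cKO DMαKG and 2051 ± 107 CPM in WT DMαKG (log2 fold change 0.01, interval -0.41 to 0.43). A p that misses the threshold does not show that the levels were the same, and these intervals give the differences that remain possible.

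The interaction, which tests whether DMαKG acted differently in cKO and WT, called 0 members and 0% of all genes, with 2 members under an unadjusted p of 0.05 (3.33%) against 3.64% of all genes, and 29 of 60 on the higher side against 48.7%. DESeq2 and voom called 0 members there. Hspb11 had 0.50 (SE 0.19), Hspa1l -1.64 (SE 0.72) and Dnajc27 -0.40 (SE 0.20), all at an edgeR adjusted p of 0.955. Averaged over treatments, cKO against WT called 0 members and 1.01% of all genes in edgeR, with 4 members under an unadjusted p of 0.05 (6.67%) against 12.8% of all genes, 39 of 60 on the higher side against 48.9%, and 0 whose groups did not overlap against 1.71%. DESeq2 called 0 members there and voom 1, Dnajc27, where it called 8.04% of all genes. Dnajc6 averaged 2.08 ± 0.266 CPM in cKO and 2.86 ± 0.676 CPM in WT (SD, n = 6 each; -0.45, edgeR adjusted p = 0.276). Dnajc12, a DNAJ protein that binds aromatic amino acid hydroxylases, averaged 4.25 ± 1.19 CPM in cKO and 2.78 ± 0.744 CPM in WT (0.61, adjusted p = 0.281 in edgeR), and Dnajc27 24.1 ± 2.79 CPM in cKO and 20.4 ± 3.03 CPM in WT (0.25, adjusted p = 0.311). Across all 4 groups at once, edgeR called 0 members and 0.473% of all genes. There were 7 members under an unadjusted p of 0.05 (11.7%) against 14.6% of all genes, led by Dnajc18 (edgeR adjusted p = 0.139), Dnajc28 (0.237) and Dnajc13 (0.27). DESeq2 called 1 member there, Dnajc18, among 5.12% of all genes, and voom 7 members among 14.7%.

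By role, the members showed no call either. In each of the 7 compartments or role groups edgeR called 0 members in each of the 8 tests. Under DMαKG in cKO, cytosolic Hsp70 and Hsp110 genes had a median log2 fold change of -0.07 with 3 of 10 on the higher side. Cytosolic Hsp90 genes had 0.05 with 1 of 2, and DNAJ class A and B proteins 0.03 with 5 of 9. Endoplasmic reticulum members had 0.06 with 6 of 12, and mitochondrial members 0.03 with 5 of 10. DNAJ class C members of other roles had -0.04 with 5 of 14. The 3 tested small heat shock proteins, Hspb1 with few reads among them, had 0.40 with 2 of 3. All members summed to 10450 to 11860 CPM in cKO DMαKG, 9697 to 10760 CPM in WT DMαKG, 9395 to 12960 CPM in cKO vehicle and 9394 to 11880 CPM in WT vehicle, so the summed level overlapped between every pair of groups.

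The nuclear and ribosome-associated members were steady. Dnajc2, or MPP11, and Hspa14, or HSP70L1, form the complex that receives new chains at the ribosome. Dnajc2 averaged 92.9 ± 9.85 CPM in cKO DMαKG, 97.7 ± 1.72 CPM in WT DMαKG, 102 ± 12.5 CPM in cKO vehicle and 93.1 ± 3.40 CPM in WT vehicle. Hspa14 averaged 71.0 ± 2.74 CPM in cKO DMαKG, 71.75 ± 0.909 CPM in WT DMαKG, 71.95 ± 13.6 CPM in cKO vehicle and 69.9 ± 7.33 CPM in WT vehicle. Dnajc9, which chaperones histones, averaged 87.2 ± 12.2 CPM in cKO DMαKG, 85.6 ± 4.03 CPM in WT DMαKG, 78.2 ± 13.4 CPM in cKO vehicle and 79.6 ± 4.13 CPM in WT vehicle. Libraries overlapped between groups in each pairwise comparison for all 3 genes.

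In the mitochondria, Hspe1 averaged 104.5 ± 24.4 CPM in cKO DMαKG, 95.9 ± 4.71 CPM in WT DMαKG, 90.5 ± 17.6 CPM in cKO vehicle and 85.3 ± 7.85 CPM in WT vehicle, with overlapping libraries. Dnajc19, part of the motor that pulls proteins into the matrix, which overlaps Fxr1 and is uncertain, averaged 15.1 ± 3.72 CPM in cKO DMαKG, 12.5 ± 1.33 CPM in WT DMαKG, 13.7 ± 2.89 CPM in cKO vehicle and 10.97 ± 1.29 CPM in WT vehicle. In the endoplasmic reticulum, Dnajc10, a reductase with a J domain, averaged 99.9 ± 18.7 CPM in cKO DMαKG, 87.0 ± 3.23 CPM in WT DMαKG, 88.7 ± 11.5 CPM in cKO vehicle and 81.8 ± 12.6 CPM in WT vehicle. Hspa13, an Hsp70 of microsomes, averaged 37.1 ± 8.05 CPM in cKO DMαKG, 32.5 ± 2.60 CPM in WT DMαKG, 32.1 ± 2.57 CPM in cKO vehicle and 34.6 ± 6.73 CPM in WT vehicle. Dnaja1 averaged 330 ± 65.7 CPM in cKO DMαKG, 292 ± 51.1 CPM in WT DMαKG, 339 ± 67.4 CPM in cKO vehicle and 378 ± 57.5 CPM in WT vehicle. Hsp90aa1 averaged 679 ± 143 CPM in cKO DMαKG, 570 ± 104 CPM in WT DMαKG, 568 ± 156.5 CPM in cKO vehicle and 604 ± 148 CPM in WT vehicle. These genes overlapped between the groups in each pairwise comparison, except that Dnaja1 was lower in every WT DMαKG library than in every WT vehicle library.

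EdgeR made no call among the listed genes that work with the members either. Of 23 co-chaperones and exchange factors, 3 heat shock transcription factors, 8 subunits of the cytosolic TRiC chaperonin, 19 genes of endoplasmic reticulum folding and the unfolded protein response, and 12 mitochondrial partners and proteases, edgeR called 0 in each of the 8 tests. Under DMαKG in cKO their medians were -0.10, 0.07, 0.16, 0.10 and 0.01, with 9 of 23, 2 of 3, 8 of 8, 14 of 19 and 6 of 12 on the higher side, against a median of 0.0037 over all genes. Chordc1, an Hsp90 co-chaperone, had the smallest p of its list for DMαKG averaged over genotypes (log2 fold change -0.39, SE 0.12, edgeR adjusted p = 0.188). Hsf2, a heat shock transcription factor, stood at 32.1, 28.5 and 26.8 CPM in cKO DMαKG, 24.0, 23.1 and 18.6 CPM in WT DMαKG, 19.9, 25.6 and 20.0 CPM in cKO vehicle and 20.4, 22.0 and 17.7 CPM in WT vehicle. All 3 cKO DMαKG libraries were thus above the other 9, with a log2 fold change against cKO vehicle of 0.42 (SE 0.15, edgeR adjusted p = 0.211). Hsf1, the main factor of the heat shock response, stood at 37.8 to 66.0 CPM in all 12 libraries.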

How the data were processed

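Per the submitters' processing notes, the tools were featureCounts 1.5.0-p3, HISAT2 2.0.5 and DESeq2 1.16.1, and the mouse build was mm10, with no role or order given. The authors deposited estimated counts per gene and library, of which 36% are not whole, and these were rounded before testing. The TPM deposited by the authors are per length and were used to compare levels between genes, and the deposited FPKM were not used. Summed counts of 15710000 to 18880000 per library set the counting precision.

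All 17955 genes of 12 libraries were fitted together in R 4.3.3 with edgeR 4.0.16 (filterByExpr, TMM scaling, robust quasi-likelihood test on group means, 8 residual degrees of freedom). Benjamini-Hochberg adjustment ran over the 12903 genes tested, in 8 tests, with a threshold of 0.05. The members and lists were chosen with earlier results of these data known. Named are the 3 members with the smallest p per test, chaperones listed by compartment, and the 5 highest in TPM and in SD. Dnajc7, Dnajc8, Dnajc14, Dnajb6, Dnajb13, Chordc1, Hsf1, Hsf2 and the untested members were named after their values were seen. Alternatives were other scalings and filters, DESeq2 1.42.0, limma 3.58.1 voom with quality weights, only the groups compared, a replicate block, a Y-linked covariate, omission of libraries, and, added after seeing the data, non-robust moderation. The code was tested on simulated counts. Upstream windows came from RefSeq tables of GRCm38.p6 and were matched by gene identifier. The transcripts of Hspa1a and Hspa1b came from GENCODE and were matched by symbol. Windows were not used for Dnajc11, Dnajc12, Dnajc18, Dnajc2, Dnajc22, Dnajc30, Dnajc5, Hsp90aa1, Hsp90ab1, Hspa13, Hspa8 and Hspa9.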

Additional observations from a re-analysis of the deposited data

How the results depend on the processing

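The count of members called was 0 in all 8 tests with edgeR, where 0 to 1.01% of all genes were called. It was also 0 with other scalings, other filters, non-robust moderation, a threshold of 0.1 and the Y-linked covariate. With only the groups compared the count was 0 in the 4 pairwise tests, where that fit was run. For alternatives that called 0 members no share of all genes was computed, so these counts cannot be compared with it. DESeq2 called 1 member (Dnajc18) for DMαKG against vehicle in cKO, averaged over genotypes, and across the 4 groups. Of all genes it called 3.01, 2.57 and 5.12% in these tests. Voom called 1 for cKO against WT with vehicle and 1 averaged over treatments (Dnajc27 in both), beside 1.9 and 8.04% of all genes. For DMαKG in cKO it called 1 (Hspa1l), beside 3.49% of all genes. For DMαKG averaged over genotypes it called 9, beside 12% of all genes, and across the 4 groups 7, beside 14.7%. The other exceptions were in DMαKG averaged over genotypes. Without the 3 low-scoring libraries edgeR called 1 (Dnajb9), beside 1.26% of all genes. With 1 library left out at a time it called 0 to 3. The 3 were without WT DMαKG replicate 3, where it called 4.72% of all genes. The cause was not tested. Deviations of same-numbered cKO and WT libraries from their group means correlated at -0.12, 0.14 and 0.47 with vehicle. With DMαKG the correlations were -0.25, -0.094 and -0.28. These values differ in sign and are too few to decide whether the numbers mark pairs. A fit with a replicate block called 0 members in each test. With 3 libraries per group and a median SE of 0.16 on the log2 scale, small differences could not be detected, and for Hspa1a and Hspa1b large ones could not either.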
